A study of Mus musculus with 48 samples.

Results

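Regional identity in the adult brain was read here from 4 hippocampus and 4 prefrontal cortex libraries of wild-type male mice. They were chosen by their labels alone (genotype Aag WT, age 6 months, labelled 6M) and are 8 of the 48 libraries of the series. Aag is the alkyladenine DNA glycosylase, a base excision repair enzyme encoded by Mpg, and the rest of the series holds the same 2 regions from Aag knockout mice and from pups at postnatal day 5 (P5) and juveniles at 6 weeks (6W). The design text gives the adults an age of 4 to 6 months and 4 animals per time point. Every WT 6M library was made in the same way from the poly(A) RNA of a dissected region, with no treatment, and strain and dissection borders are not given in the sources used here. The groups set beside them below were KO 6M (Aag-/-, the same age), WT 6W and WT P5, each with 4 hippocampus and 4 prefrontal libraries from male mice. The labels give the libraries of both regions the same replicate numbers, without saying whether a shared number means a shared animal. The regions were compared as unpaired, and p-values rest on the spread between libraries within a group, pooled over the 12 groups of all 48 libraries.

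The hippocampus is an archicortical structure in which granule cells of the dentate gyrus send mossy fibres to CA3 pyramidal cells, which in turn project to CA1. The prefrontal cortex is a layered neocortex whose upper layers connect cortical areas and whose deep layers project to striatum, thalamus and brainstem. Both regions arise from the dorsal telencephalon and hold excitatory pyramidal neurons, interneurons that migrate in from the ventral telencephalon, astrocytes, oligodendrocytes, microglia and vessels. Levels are given as CPM, a gene's counts scaled to a common library size, always in the order of replicates 1 to 4. A log2 fold change is the hippocampal minus the prefrontal level, so positive values mean higher in hippocampus, and it is followed by its standard error (SE). In such bulk samples, fewer cells of a type and less RNA per cell cannot be told apart.

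Total counts ran from 22347188 to 37979957 per hippocampal library and from 24135877 to 28804376 per prefrontal library. A floor of 3 counts corresponded to 0.0811 to 0.151 CPM, which covers counting error only. Several libraries stood apart in the makeup of their RNA, as the plot of summed list levels shows. Hippocampal replicate 1 had 31.4% of its counts from mitochondrially encoded genes, against 17.3% to 21.1% in the other hippocampal libraries and 17.8% to 21.4% in prefrontal cortex, and its summed dentate granule cell markers reached 444.4 CPM against 638.3 to 698.4 CPM in the others. Hippocampal replicates 3 and 4 carried summed choroid plexus markers of 3920 and 3399 CPM, against 419.5 and 671.9 CPM in replicates 1 and 2. Prefrontal replicates 2 and 4 carried summed striatal medium spiny neuron markers of 971.8 and 864.3 CPM, against 305.8 and 334.0 CPM in replicates 1 and 3. Prefrontal replicate 1 had summed myelin genes of 1074 CPM against 2150 to 2484 CPM, and the highest sum of layer 2/3 markers, 798.9 CPM against 570.0 to 659.8 CPM. List counts that moved by over 1.5 times without such libraries, alone or in the pairs named here, are given below with both values. In the knockout adults used for comparison, Mpg was at 1.02 to 2.24 CPM in hippocampus and 1.38 to 2.51 CPM in prefrontal cortex, under each of the 8 WT 6M libraries.

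**Figure D1:**
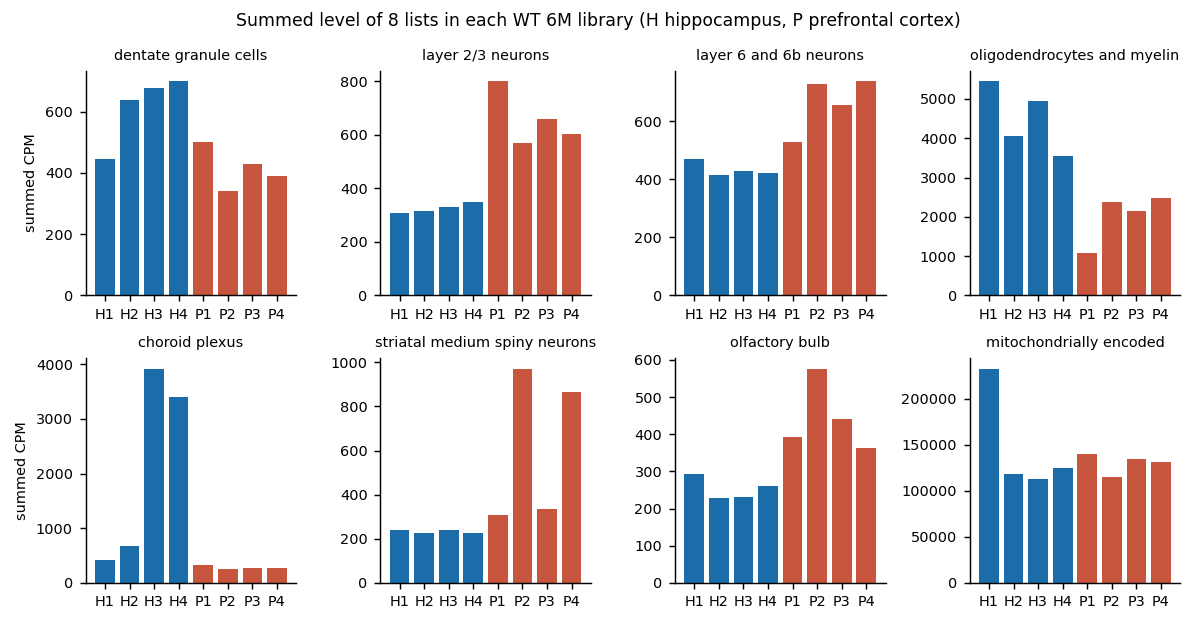
Bars give the summed CPM of 8 gene lists in each WT 6M library (H1 to H4 hippocampus, P1 to P4 prefrontal cortex; each axis starts at 0). Choroid plexus genes are high in H3 and H4 (3920 and 3399 CPM), striatal genes in P2 and P4 (971.8 and 864.3 CPM) and mitochondrially encoded genes in H1, while myelin genes are lowest in P1 (1074 CPM).

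The 2 regions differed widely. Of 18849 genes tested with edgeR's quasi-likelihood test, 4230 (22.4%) passed an adjusted p of 0.05, here called genes, with 2122 (11.3% of those tested) higher in hippocampus and 2108 (11.2%) higher in prefrontal cortex. The median log2 fold change over all tested genes was 0.01. Among called genes, 795 were at least 1 log2 unit higher in hippocampus and 786 at least 1 log2 unit lower (8.39% of tested genes together). Differences of at least 3 log2 units lay more often on the hippocampal side, with 193 called genes that much higher there and 111 that much lower. KO 6M gave 153 and 115, but 629 and 811 at 1 log2 unit or more. These counts set no lower limit on level, so they include genes near the floor, such as Avpr1b and Lhx1, and choroid plexus genes such as Ttr. The 4 and 4 CPM values did not overlap in 4527 genes (24%).

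The largest differences towards hippocampus, among called genes whose mean log2 CPM reached 4 and whose regions did not overlap, were those of Ttr, Cabp7, Gm2115, Shisa6, Kl, Npy2r, Prox1, Pcdh20, Dcn, Tanc1, Cpne7 and Rnf182. Prox1, the homeobox transcription factor that specifies and maintains dentate granule cells, stood at 111.5, 184.0, 203.6 and 202.6 CPM in hippocampus versus 20.1, 22.4, 24.3 and 23.2 CPM in prefrontal cortex. Every hippocampal library lay above every prefrontal one, with replicate 1 the lowest of the hippocampal libraries, and the log2 fold change was 2.96 ± 0.15 (adjusted p = 7.53e-20). Cabp7, a neuronal calcium-binding protein of the calneuron family, was even within each region at 107.9, 100.8, 95.7 and 104.3 CPM in hippocampus versus 5.35, 5.89, 6.13 and 6.81 CPM in prefrontal cortex (4.08 ± 0.17, adjusted p = 4.88e-23). Shisa6, an auxiliary subunit that keeps AMPA receptors at the synapse, measured 214.6, 414.0, 374.3 and 384.9 CPM in hippocampus versus 26.1, 33.3, 28.2 and 28.7 CPM in prefrontal cortex, again lowest in hippocampal replicate 1 (3.58 ± 0.16, adjusted p = 1.21e-21). In these 3 genes no prefrontal library came near the lowest hippocampal one. Npy2r, the presynaptic Y2 receptor for neuropeptide Y, measured 80.3, 119.0, 102.9 and 112.7 CPM in hippocampus versus 8.17, 12, 10.2 and 8.36 CPM in prefrontal cortex (3.42 ± 0.19, adjusted p = 6.16e-19).

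Among the others, the long non-coding RNA Gm2115 had a log2 fold change of 3.66 ± 0.16, the protocadherin Pcdh20 2.69 ± 0.16, the postsynaptic scaffold Tanc1 2.57 ± 0.16, the copine Cpne7 2.50 ± 0.26, the ubiquitin ligase Rnf182 2.34 ± 0.13 and the small proteoglycan decorin, Dcn, 2.58 ± 0.45. Dcn also stands in the list of meningeal and fibroblast genes, of which it and the related proteoglycan Lum (1.54 ± 0.29) were the 2 called among 10 tested. The summed level of that list was 1128, 332.6, 519.4 and 2115 CPM in hippocampus and 957.7 to 1287 CPM in prefrontal cortex, which overlap. In KO 6M, 2 of the list were higher in hippocampus and 5 lower (median -0.99, against -0.03 at WT 6M). Ttr, the thyroxine carrier made by choroid plexus epithelium, had the largest SE of these 12 genes, at 95.3, 300.5, 2655 and 2223 CPM in hippocampus versus 5.38, 2.7, 3.65 and 3.87 CPM in prefrontal cortex. Its high hippocampal values were in replicates 3 and 4, as for the summed choroid plexus markers, and the log2 fold change was 8.39 ± 1.68. Kl, the co-receptor klotho, which choroid plexus and hippocampal neurons both make, measured 27, 48.8, 103.0 and 98.4 CPM in hippocampus and 4.99 to 7.15 CPM in prefrontal cortex (3.51 ± 0.44).

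Towards prefrontal cortex the largest differences were those of Sema3a, Cckbr, Cobl, Rasgef1b, Gm11549, Bmp3, Chrdl1, Hs3st2, Cbln2, Fhod3, Exph5 and Cpne5. Sema3a, a secreted repulsive guidance molecule, measured 9.19, 4.13, 7.24 and 7.01 CPM in hippocampus versus 44, 54.1, 49.7 and 52.6 CPM in prefrontal cortex (-2.86 ± 0.21, adjusted p = 1.42e-14). Cckbr, the brain cholecystokinin receptor, measured 14.4, 9.47, 8.43 and 8.19 CPM in hippocampus versus 88.4, 56.2, 71.3 and 67.9 CPM in prefrontal cortex (-2.82 ± 0.20, adjusted p = 2.86e-15). Cobl, an actin nucleator of dendrite growth, measured 39.2, 21.2, 26.8 and 24.7 CPM in hippocampus versus 273.4, 135.8, 167.8 and 177.1 CPM in prefrontal cortex (-2.76 ± 0.24, adjusted p = 1.98e-12). In both Cckbr and Cobl, replicate 1 was the highest library of each region and the regions stayed well apart. Rasgef1b, a guanine nucleotide exchange factor, measured 22, 12.6, 13.2 and 12.1 CPM in hippocampus versus 118.0, 88.7, 98.7 and 93.6 CPM in prefrontal cortex (-2.74 ± 0.16, adjusted p = 7.89e-18). The remaining members were the bone morphogenetic protein Bmp3 (-2.69 ± 0.26), the BMP antagonist Chrdl1 (-2.57 ± 0.22), the heparan sulfate sulfotransferase Hs3st2 (-2.56 ± 0.20), the synapse organiser Cbln2 (-2.46 ± 0.19), the formin Fhod3 (-2.45 ± 0.20), the Rab27 effector Exph5 (-2.36 ± 0.20), the copine Cpne5 (-2.35 ± 0.17) and the transcript Gm11549 (-2.73 ± 0.19). Several of the 24 genes overlap another gene on the opposite strand in GENCODE M21, among them Cabp7 (Zmat5), Prox1 (Prox1os), Shisa6, Rasgef1b, Cobl, Hs3st2 and Fhod3. The strand setting of the counting is not given in the sources used here, so reads of such partners may be included.

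The promoters of 15 of these 24 genes were matched by symbol in RefSeq (GRCm38.p6, 250 bases before to 50 bases after the start) and searched on both strands for 3 motifs: CAGATG, an E-box of the kind bound by NeuroD and Neurog factors; TGACGTCA, the full cyclic AMP response element; and GCGGGGGCG, the site of EGR factors. CAGATG occurred at Prox1 alone, against 17.2% of all 32851 promoters. TGACGTCA occurred at Hs3st2 alone, against 1.79%. GCGGGGGCG occurred at Cabp7, Cckbr, Cobl and Rasgef1b, against 2.91%. A gene counted if any of its promoters matched, while the shares are of single promoters. Prox1 and Cobl each had another promoter with no match, which is not shown. The 250 bases before the start are shown for a pair of genes from each side in which the match lies wholly before the start, read 5′ to 3′ on the gene's strand with the match in capitals. Prox1 lies on the minus strand at chr1:190170828-190171077, with its E-box starting at base -179 from the start site. Cabp7 lies on the minus strand at chr11:4747180-4747429, with the EGR motif at -52. Cobl lies on the minus strand at chr11:12464961-12465210, with the EGR motif at -72. Hs3st2 lies on the plus strand at chr7:121392046-121392295, with the cyclic AMP element at -69. These are matches of letters and carry no measurement of binding.
Prox1: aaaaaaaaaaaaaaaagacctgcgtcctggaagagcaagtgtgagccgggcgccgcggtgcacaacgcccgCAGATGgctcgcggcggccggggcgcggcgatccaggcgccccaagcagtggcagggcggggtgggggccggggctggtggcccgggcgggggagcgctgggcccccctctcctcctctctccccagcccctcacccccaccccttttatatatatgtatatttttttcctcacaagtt
Cabp7: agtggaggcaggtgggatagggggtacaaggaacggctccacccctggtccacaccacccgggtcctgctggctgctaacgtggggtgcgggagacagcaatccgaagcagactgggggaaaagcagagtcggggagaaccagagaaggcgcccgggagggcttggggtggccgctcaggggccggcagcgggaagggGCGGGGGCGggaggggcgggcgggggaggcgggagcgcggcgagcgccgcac
Cobl: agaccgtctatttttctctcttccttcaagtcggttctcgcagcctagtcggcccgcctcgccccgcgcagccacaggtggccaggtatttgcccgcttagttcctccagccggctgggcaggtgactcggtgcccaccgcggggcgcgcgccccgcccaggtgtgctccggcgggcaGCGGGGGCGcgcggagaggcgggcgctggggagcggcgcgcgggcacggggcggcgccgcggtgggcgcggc
Hs3st2: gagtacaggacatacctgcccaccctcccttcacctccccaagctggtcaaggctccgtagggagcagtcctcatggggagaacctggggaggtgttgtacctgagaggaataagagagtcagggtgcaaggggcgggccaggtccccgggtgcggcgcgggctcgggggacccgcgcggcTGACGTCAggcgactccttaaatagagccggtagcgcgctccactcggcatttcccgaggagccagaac

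**Figure D2:**
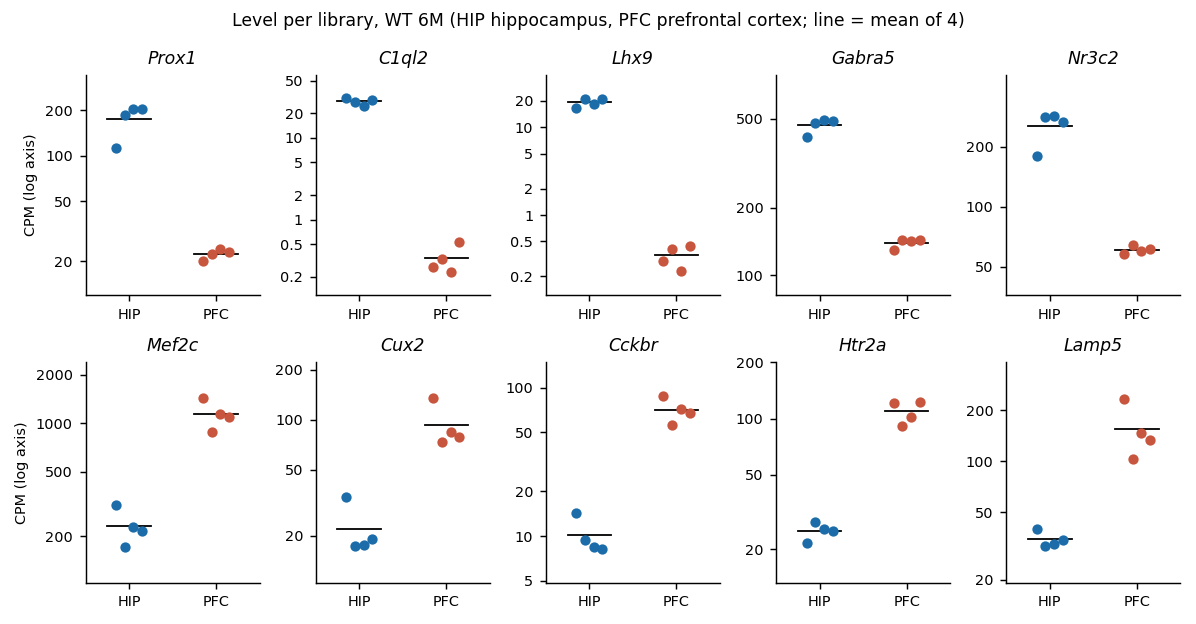
Points give the CPM of 10 genes in each WT 6M library on log axes (HIP hippocampus, PFC prefrontal cortex; lines mark the mean of 4). In each of the 10 genes the 4 hippocampal and 4 prefrontal values do not overlap, with Prox1, C1ql2, Lhx9, Gabra5 and Nr3c2 higher in hippocampus and Mef2c, Cux2, Cckbr, Htr2a and Lamp5 higher in prefrontal cortex.

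Of 12 dentate granule cell genes, 6 were higher in hippocampus and 2 lower, against 11.3% and 11.2% of all tested genes, with a median log2 fold change of 0.79 against 0.01 over all genes. The same 11.3%, 11.2% and 0.01 are the values over all tested genes for every WT 6M list count and median below. C1ql2, a secreted C1q-like protein of mossy fibre synapses, measured 30.9, 27.4, 24.4 and 28.7 CPM in hippocampus versus 0.263, 0.332, 0.228 and 0.534 CPM in prefrontal cortex (6.36 ± 0.28, adjusted p = 2.33e-22). Dsp, the desmosomal plaque protein desmoplakin, measured 12.7, 43.6, 50.9 and 45.4 CPM in hippocampus versus 0.376, 0.332, 0.228 and 0.356 CPM in prefrontal cortex (6.87 ± 0.42, adjusted p = 1.69e-17). Hippocampal replicate 1 lay at the level of its neighbours for C1ql2 and well under them for Dsp. Lct, the lactase gene, at 19.2 to 51.7 CPM in hippocampus against 1.74 to 5.8 CPM in prefrontal cortex (3.87 ± 0.32), Tdo2, tryptophan dioxygenase (2.52 ± 0.35), and Glis3, a zinc finger factor (1.36 ± 0.16), completed the higher members with Prox1. Pdyn, the dynorphin precursor, and C1ql3 went the other way at -1.46 ± 0.38 and -0.56 ± 0.18, and without replicate 1 of either region C1ql3 was no longer called (adjusted p up to 0.123). Calb1, calbindin, which both granule cells and upper-layer cortical neurons make, had -0.20 ± 0.14 and was not called.

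Of 8 CA1 pyramidal genes, 4 were higher in hippocampus and none lower (median 0.49). Fibcd1, a receptor for acetylated ligands, measured 34.2, 62.3, 51.2 and 46.4 CPM in hippocampus versus 2.52, 2.53, 4.26 and 2.98 CPM in prefrontal cortex (3.98 ± 0.27, adjusted p = 1.03e-15). Spink8, a protease inhibitor, measured 16.2, 25.1, 23.6 and 23.9 CPM in hippocampus versus 0.715, 0.83, 0.723 and 0.489 CPM in prefrontal cortex (5.00 ± 0.25, adjusted p = 1.37e-20). Both were low but above the 3-count floor in every prefrontal library. Pou3f1, a POU homeobox factor (1.45 ± 0.18), and Man1a, a mannosidase (0.91 ± 0.15), were the other 2. Wfs1, mutated in Wolfram syndrome, had -0.27 ± 0.24 and was not called: prefrontal replicate 1 stood at 146.3 CPM and the other 7 libraries between 61.8 and 75.8 CPM, and without that library the log2 fold change was 0.10.

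The 8 CA2 genes were split, with 3 higher in hippocampus and 2 lower (median 0.02, or -0.42 without hippocampal replicates 3 and 4 and 0.43 without prefrontal replicates 2 and 4). Amigo2, an adhesion protein, (1.74 ± 0.20) and Rgs14, a signalling regulator that limits CA2 plasticity, (0.84 ± 0.17) were higher. Avpr1b, the vasopressin 1b receptor of CA2, had no count in any prefrontal library and 0, 0.279, 0.54 and 0.362 CPM in hippocampus, near the floor, so no fold is given. Its call was lost without hippocampal replicates 3 and 4 (adjusted p = 0.0638). Pcp4, a calmodulin regulator also made by deep-layer cortical neurons, (-1.17 ± 0.22) and Ccdc3 (-0.83 ± 0.17) were lower in hippocampus. Of 11 CA3 and mossy cell genes, 5 were higher in hippocampus and 2 lower (median 0.65), or 1 lower without replicate 1 of either region or without hippocampal replicates 3 and 4. The higher members were led by Iyd, an iodotyrosine deiodinase, at 1.16, 2.88, 3.27 and 2.94 CPM against 0.188, 0.166, 0.114 and 0.0445 CPM near the floor, the zinc finger factor St18 (3.10 ± 0.28) and the kainate receptor subunit Grik4 (1.29 ± 0.16). Coch, the cochlin gene, was lower at -1.83 ± 0.19.

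Of 6 genes of Cajal-Retzius cells, the reelin-secreting neurons that persist at the hippocampal fissure, 3 were higher in hippocampus, 1 was lower and 2 were not called (median 1.82, taken in part from Lhx5, a LIM homeobox factor near the floor in both regions). Their summed level overlapped between the regions, at 69.5 to 74.4 CPM in hippocampus and 66.2 to 97.2 CPM in prefrontal cortex. The higher members included Trp73, a p53-family factor, at 1.96 to 3.65 CPM against 0.267 to 0.79 CPM (2.51 ± 0.26) and Nhlh2, a basic helix-loop-helix factor, at 2.21 to 2.98 CPM against 0.301 to 0.581 CPM (2.61 ± 0.32). Lhx1 was called as well, with 1 count in 1 prefrontal library and none in the other 3 and 0.1, 0.372, 0.378 and 0.271 CPM in hippocampus. Reln itself, which cortical and hippocampal interneurons also make, was lower in hippocampus at -0.35 ± 0.11, a call lost without hippocampal replicate 2, prefrontal replicate 1 or 2, or hippocampal replicates 3 and 4 together (adjusted p up to 0.128). Of 11 genes of adult-born neurons and their progenitors, 3 were higher in hippocampus, among them Neurod1 (0.93 ± 0.17), a pro-neuronal factor, and Hopx (1.17 ± 0.16), a marker of quiescent progenitors that astrocytes also make. Dcx, doublecortin, was lower in hippocampus, measuring 87.3, 33.9, 43.3 and 46.4 CPM in hippocampus versus 71.2, 136.3, 98.9 and 76.8 CPM in prefrontal cortex (-0.86 ± 0.22), and it was not called without hippocampal replicates 3 and 4 (adjusted p = 0.0992), while 2 genes of the list were lower without hippocampal replicate 1. The proliferation genes Mki67 (-0.12 ± 0.23) and Top2a (0.08 ± 0.35) were not called.

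The cortical layers did not behave alike. Of 9 layer 2/3 genes, 7 were higher in prefrontal cortex and 1 in hippocampus (median log2 fold change -2.01). Cux2, the homeobox factor of upper-layer neurons, measured 34.4, 17.3, 17.6 and 19.1 CPM in hippocampus versus 134.6, 73.2, 83.9 and 79.2 CPM in prefrontal cortex (-2.08 ± 0.19, adjusted p = 1.07e-11). Replicate 1 was the highest library in each region, and the regions did not overlap. Stard8, a GTPase-activating protein (-2.01 ± 0.13), Otof, otoferlin (-2.46 ± 0.32), Rasgrf2, a Ras exchange factor (-1.25 ± 0.15), Cux1 (-0.92 ± 0.10) and Igfn1 (-4.08 ± 0.46) went the same way. The exception was the matrix protein Matn2, at 0.65 ± 0.13. Of 6 layer 4 genes, Rorb, the nuclear receptor of layer 4 neurons (-1.04 ± 0.13), Kcnh5 (-2.15 ± 0.16) and Rspo1 (-1.75 ± 0.33) were higher in prefrontal cortex, and Scnn1a, an epithelial sodium channel subunit, was higher in hippocampus (2.06 ± 0.24).

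Of 14 layer 6 and 6b genes, 5 were higher in prefrontal cortex and 2 in hippocampus (median -0.71). The numbers were 8 and 2 without hippocampal replicate 1 (median -1.0), 4 and 3 without prefrontal replicates 2 and 4 (median -0.12), and 4 and 2 without hippocampal replicates 3 and 4 (median -0.36). Tbr1, the T-box factor of corticothalamic neurons, measured 167.3, 119.2, 135.5 and 125.2 CPM in hippocampus versus 363.9, 365.9, 397.5 and 431.9 CPM in prefrontal cortex (-1.51 ± 0.14, adjusted p = 1.53e-11). Its prefrontal libraries were close together and all above the hippocampal ones. Foxp2, a forkhead factor made by corticothalamic and also by striatal neurons, measured 3.16, 1.35, 2.78 and 2.53 CPM in hippocampus versus 9.34, 34.2, 12.8 and 30 CPM in prefrontal cortex (-3.12 ± 0.44, adjusted p = 2.74e-07). Its 2 highest prefrontal values were in the replicates with high striatal markers, 2 and 4, and the log2 fold change without them was -2.16. Syt6, a synaptotagmin, (-2.03 ± 0.25) was another prefrontal member. Rprm, reprimo, (-0.89 ± 0.16) was called too, but its values overlapped, with hippocampal replicate 1 at 14.4 CPM and prefrontal replicate 1 at 13.3 CPM. The neurotensin receptor Ntsr1 was called at -0.66 ± 0.24. It lost the call without hippocampal replicate 2, 3 or 4 or prefrontal replicate 2 or 3 (adjusted p up to 0.172, and 0.528 without hippocampal replicates 3 and 4). Zfpm2 (1.49 ± 0.13), a GATA cofactor, and Hs3st4 (1.32 ± 0.13), a heparan sulfate sulfotransferase, were higher in hippocampus.

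Layer 5 genes ran against the name of their list. Of 12 tested, 7 were higher in hippocampus and 1 in prefrontal cortex (median 0.77), and KO 6M gave 8 and 1. The 7 were Bcl11b (0.83 ± 0.17), a zinc finger factor of subcerebral neurons that CA1 and dentate neurons also make, Etv1 (0.71 ± 0.15), an ETS factor, Bcl6 (0.85 ± 0.17), a transcriptional repressor, Lratd2 (1.61 ± 0.19), Tshz2 (1.42 ± 0.30), a teashirt factor, Crym (1.36 ± 0.18), a thyroid hormone-binding crystallin, and Npr3 (1.22 ± 0.21), the natriuretic peptide clearance receptor. Bcl11b measured 118.5, 153.1, 170.7 and 150.6 CPM in hippocampus versus 49.5, 109.8, 67.7 and 106.9 CPM in prefrontal cortex, and the 2 higher prefrontal values were in the replicates with high striatal markers. Striatal medium spiny neurons also make it. Deptor, an mTOR inhibitor, was the prefrontal member (-1.38 ± 0.18). Fezf2, the factor that specifies subcerebral projection neurons, measured 48.3 to 58.7 CPM in hippocampus and 27.2 to 44.4 CPM in prefrontal cortex and was not called (0.46 ± 0.18, adjusted p = 0.0591), but was without prefrontal replicate 1 or 4 (adjusted p = 0.0405 and 0.0408).

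**Figure D3:**
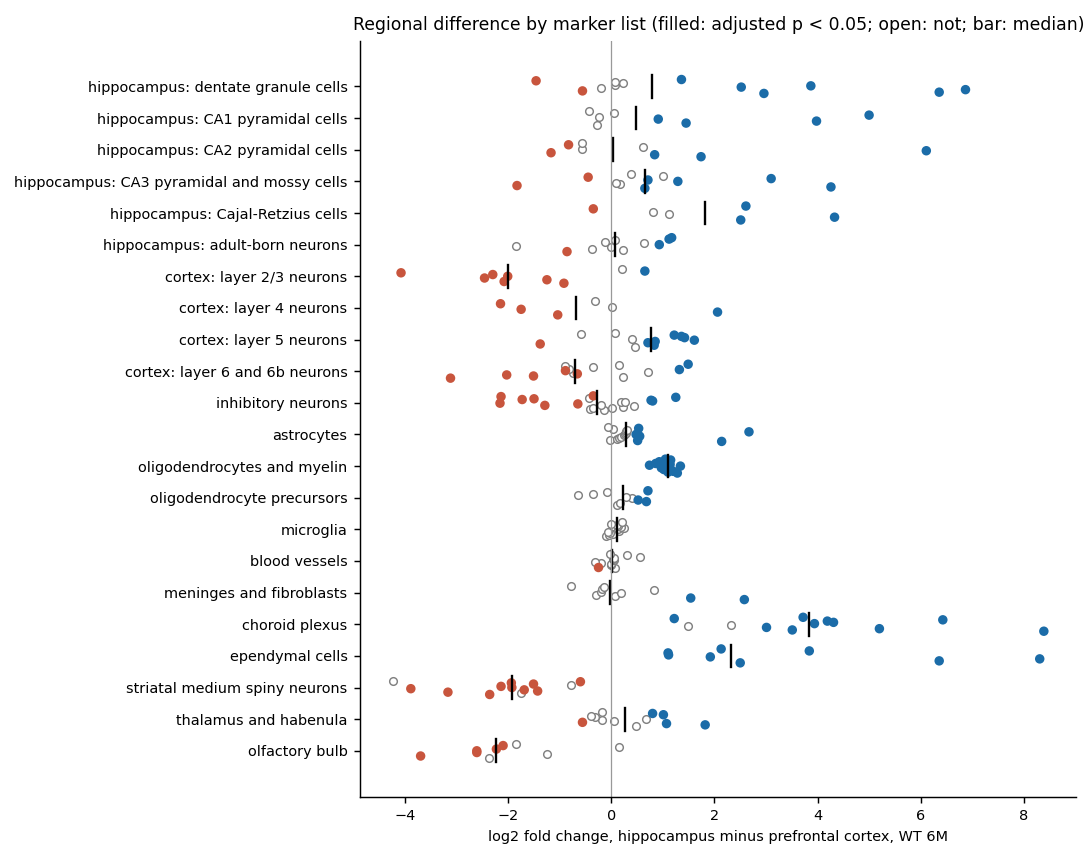
Each point is a tested gene of 1 of 22 marker lists, placed by its log2 fold change at WT 6M (hippocampus minus prefrontal cortex), filled where the adjusted p was under 0.05, with a bar at the list's median. Layer 2/3, striatal and olfactory bulb genes lie to the left (medians -2.01, -1.93 and -2.23), and choroid plexus, ependymal and myelin genes to the right (3.83, 2.32 and 1.10).

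Of 39 transcription factors of the telencephalon, 19 were higher in hippocampus and 13 in prefrontal cortex (median 0.42). Lhx9, a LIM homeobox factor, came nearest to presence against absence, at 16.5, 21.2, 18.3 and 20.9 CPM in hippocampus versus 0.301, 0.415, 0.228 and 0.445 CPM in prefrontal cortex (5.79 ± 0.28, adjusted p = 8.87e-21). Zbtb20, a repressor needed for hippocampal fate, measured 428.9, 665.6, 656.2 and 617.4 CPM in hippocampus versus 139.5, 224.8, 162.0 and 171.1 CPM in prefrontal cortex (1.76 ± 0.19, adjusted p = 5.94e-10). Replicate 1 was again the lowest hippocampal library, still well above all prefrontal ones. Nr2f2, the COUP-TFII nuclear receptor, was higher at 1.93 ± 0.23, the basic helix-loop-helix factors Neurod6 (1.38 ± 0.18), Bhlhe22 (1.09 ± 0.21), Neurod1 and Neurod2 (0.81 ± 0.13) likewise, and the nuclear factor I genes Nfia (0.48 ± 0.09), Nfib (0.56 ± 0.10) and Nfix (0.67 ± 0.16) by less. Nfix was not called without prefrontal replicates 2 and 4 (adjusted p = 0.0955).

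On the prefrontal side stood Mef2c, an activity-regulated factor of cortical neurons, at 310.1, 171.3, 226.2 and 215.7 CPM in hippocampus versus 1437, 877.4, 1133 and 1099 CPM in prefrontal cortex (-2.30 ± 0.20, adjusted p = 1.11e-12). The lowest prefrontal library was replicate 2 and the highest hippocampal one replicate 1, still apart. Meis2 (-2.10 ± 0.15), Pou3f2 (-1.55 ± 0.16), Tshz3 (-1.46 ± 0.22), Tbr1, Cux1, Cux2, Rorb and Foxp2 completed the group of larger prefrontal differences. Emx1, a factor of all dorsal telencephalic excitatory neurons, was not called (-0.51 ± 0.20, adjusted p = 0.0568) but was without prefrontal replicate 2 or 4 and without both (-0.89, adjusted p = 0.00149). Emx2 was higher in hippocampus by 0.52 ± 0.13, a call lost without prefrontal replicates 2 and 4 (adjusted p = 0.222).

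Each receptor family had members on both sides. Of 22 tested glutamate receptor genes, 5 were higher in hippocampus and 7 in prefrontal cortex (median -0.07), and 3 were higher in hippocampus without hippocampal replicate 2, 3 or 4 or prefrontal replicate 3, and 2 without hippocampal replicates 3 and 4. Gria1, the AMPA receptor subunit GluA1, measured 677.4, 1054, 1032 and 985.9 CPM in hippocampus versus 376.1, 391.5, 351.1 and 349.9 CPM in prefrontal cortex (1.35 ± 0.12, adjusted p = 1.77e-12). The regions did not overlap, and hippocampal replicate 1 was the lowest of its region. Its partners Gria3 (-0.69 ± 0.11) and Gria4 (-0.83 ± 0.11) were higher in prefrontal cortex, and Gria2, which makes the channel calcium-impermeable, was not called (0.16 ± 0.14). Of the kainate receptors, Grik4 was higher in hippocampus and Grik3 (-1.24 ± 0.16) in prefrontal cortex. The obligate NMDA subunit Grin1 was not called (-0.13 ± 0.13), and Grin2a was higher in hippocampus (0.61 ± 0.16), although not without hippocampal replicates 3 and 4 (adjusted p = 0.128). Among metabotropic receptors the clearest differences were the inhibitory Grm3 (-0.91 ± 0.12) and Grm8 (-1.84 ± 0.22), both higher in prefrontal cortex.

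Of 15 tested GABA receptor genes, 3 were higher in hippocampus and 6 in prefrontal cortex (median -0.20), and 1 was higher in hippocampus, Gabra5, without hippocampal replicate 2 or 4 or prefrontal replicate 3. Gabra5, the subunit of extrasynaptic receptors that carry tonic inhibition in pyramidal cells, measured 413.5, 481.1, 491.7 and 491.1 CPM in hippocampus versus 130.2, 144.0, 142.1 and 143.2 CPM in prefrontal cortex (1.75 ± 0.13, adjusted p = 3.41e-15). The alpha3 subunit gene Gabra3 measured 154.5, 108.7, 109.3 and 111.2 CPM in hippocampus versus 355.7, 270.0, 319.8 and 323.5 CPM in prefrontal cortex (-1.39 ± 0.16, adjusted p = 1.31e-09). These alpha subunits lay on opposite sides, each with no overlap. Gabrd, the delta subunit of another class of extrasynaptic receptor, was higher in prefrontal cortex at 33.5 to 43 CPM against 12.1 to 15 CPM (-1.42 ± 0.16), as were Gabrb2 (-0.59 ± 0.12) and Gabrg3 (-0.84 ± 0.11). Gabra2 was called at 0.60 ± 0.19 while its values ran 219.7, 423.8, 194.4 and 425.7 CPM in hippocampus versus 149.1, 259.6, 159.2 and 264.7 CPM in prefrontal cortex, low in replicates 1 and 3 of both regions, and it lost the call without hippocampal replicate 2 or 4 or prefrontal replicate 1 or 3 (adjusted p up to 0.121) and in the fit of the 8 libraries alone (adjusted p = 0.14).

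Of 37 receptors for monoamines, histamine and acetylcholine, 10 were higher in hippocampus and 16 in prefrontal cortex (median -0.51), and 8 and 11 without prefrontal replicates 2 and 4 (median -0.02). Htr2a, the serotonin receptor at which classical hallucinogens act, measured 21.7, 28.1, 25.8 and 25 CPM in hippocampus versus 121.2, 91.9, 101.6 and 123.1 CPM in prefrontal cortex (-2.12 ± 0.18, adjusted p = 3.66e-13). Every prefrontal library exceeded every hippocampal one several times over. Adra1b, an alpha1 adrenergic receptor, measured 2.31, 3.25, 2.95 and 2.13 CPM in hippocampus versus 32.7, 11.5, 17.6 and 16.2 CPM in prefrontal cortex (-2.87 ± 0.23, adjusted p = 7.96e-14), and Adra1a (-1.29 ± 0.20) went the same way. The histamine receptors Hrh1 (-1.16 ± 0.24), Hrh2 (-0.91 ± 0.17) and Hrh3 (-1.23 ± 0.20) were all higher in prefrontal cortex, as were the nicotinic subunit Chrna4 (-1.14 ± 0.16) and the muscarinic M2 receptor Chrm2 (-1.05 ± 0.19). On the hippocampal side were the Gs-coupled serotonin receptor Htr4 (2.88 ± 0.43), Htr5b (2.76 ± 0.33), the muscarinic M5 receptor Chrm5 at 1.71 to 3.34 CPM against 0.113 to 0.311 CPM (3.57 ± 0.49), the dopamine D5 receptor Drd5 (1.81 ± 0.19), the alpha7 nicotinic subunit Chrna7 (0.90 ± 0.17) and the inhibitory serotonin receptor Htr1a (0.54 ± 0.12). The muscarinic M1 receptor Chrm1 was not called (0.29 ± 0.13), but was without replicate 1 of hippocampus (adjusted p = 0.00756) or of prefrontal cortex (adjusted p = 0.0409).

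The dopamine receptors Drd1 and Drd5 lay on opposite sides, but Drd1, which medium spiny neurons make in large amounts, measured 6.18, 3.76, 5.08 and 3.26 CPM in hippocampus versus 7.6, 41.4, 9.89 and 35.3 CPM in prefrontal cortex. Prefrontal replicates 2 and 4 were the high ones. Its log2 fold change of -2.36 with an SE of 0.48 became -0.93 without them, with an adjusted p of 0.238. Drd2 measured 3.27, 3.39, 3.19 and 3.53 CPM in hippocampus versus 1.05, 24.3, 1.37 and 18.7 CPM in prefrontal cortex and was not called (-1.76 ± 0.89, adjusted p = 0.166), except with no filter on low counts. Prefrontal replicates 1 and 3 lay under every hippocampal library and replicates 2 and 4 above, and without the latter the log2 fold change was 1.46 (adjusted p = 0.493). Drd3 was counted above the 3-count floor in prefrontal replicates 2 and 4 alone, at 0, 0.83, 0 and 0.712 CPM against 0, 0, 0.054 and 0 CPM in hippocampus, so no fold is given.

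**Figure D4:**
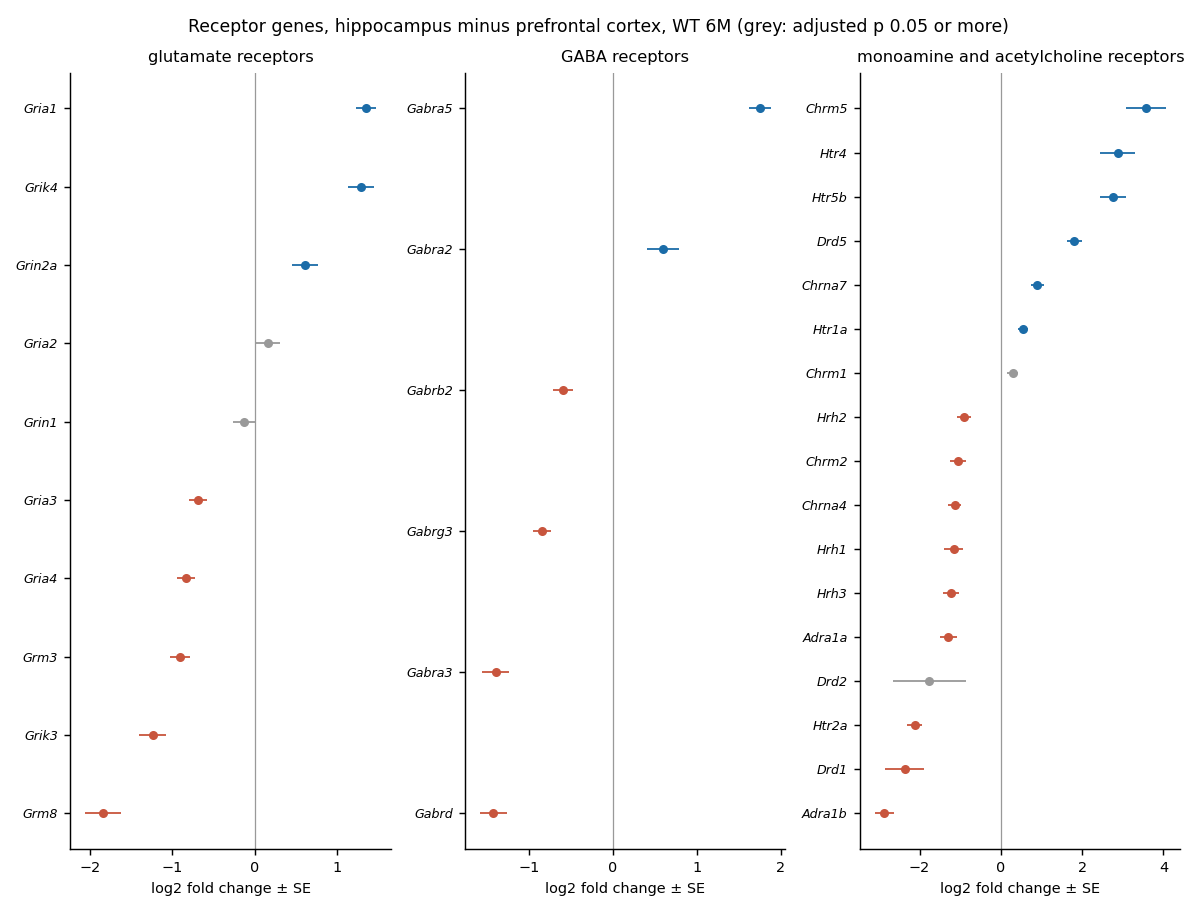
Points give the log2 fold change at WT 6M (hippocampus minus prefrontal cortex) of the glutamate, GABA, monoamine and acetylcholine receptor genes named in the text, with horizontal bars for the SE and grey for an adjusted p of 0.05 or more. Each family has members on both sides, with Gria1, Gabra5 and Chrm5 the most hippocampal of their panels and Grm8 and Gabrd the most prefrontal of theirs; Drd3 is left out, since it has no fold.

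Neuropeptide genes leaned to prefrontal cortex, with 10 of 18 higher there and 4 in hippocampus (median -0.97), or 2 in hippocampus without hippocampal replicates 3 and 4. Adcyap1, the precursor of the peptide PACAP, measured 11.7, 6.59, 5.4 and 5.38 CPM in hippocampus versus 37.2, 28, 33.6 and 31 CPM in prefrontal cortex (-2.18 ± 0.28, adjusted p = 3.89e-08). The regions did not overlap, although hippocampal replicate 1 stood above its neighbours. Crh, corticotropin-releasing hormone, was at 1.86 to 4.32 CPM in hippocampus and 8.17 to 11.5 CPM in prefrontal cortex (-1.73 ± 0.27), Vip, of disinhibitory interneurons, at 8.35 to 23.1 and 19.1 to 47.2 CPM (-1.29 ± 0.23), and Npy at 99.9 to 127.6 and 143.5 to 236.8 CPM (-0.65 ± 0.13). Tac1 (-2.14 ± 0.52) and Penk (-1.93 ± 0.57), which striatal neurons make, were highest in prefrontal replicates 2 and 4, and neither was called without them (adjusted p = 0.436 and 0.503). Penk was not called without prefrontal replicate 2 either (adjusted p = 0.0609). Grp, gastrin-releasing peptide, led the hippocampal members at 9.3 to 19.6 CPM against 2.57 to 4.4 CPM (1.85 ± 0.28). Sst, somatostatin, and Cck, cholecystokinin, were not called (0.44 ± 0.18 and -0.20 ± 0.13), although Sst was without prefrontal replicate 4 (adjusted p = 0.0262) and Cck without prefrontal replicates 2 and 4 (adjusted p = 0.0326). The Cck receptor Cckbr was among the largest prefrontal differences.

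The 23 neuropeptide receptors had 4 members higher in hippocampus and 8 in prefrontal cortex (median -0.07), against 11.3% and 11.2% of all tested genes. Without prefrontal replicates 2 and 4 the members higher in prefrontal cortex were 5. Besides Npy2r and Cckbr the called receptors included the somatostatin receptor Sstr2 (-1.04 ± 0.14), the CRH receptor Crhr1 (-1.17 ± 0.17) and the delta opioid receptor Oprd1 (-0.92 ± 0.21), all higher in prefrontal cortex. The neurotensin receptor Ntsr2, which astrocytes make, was higher in hippocampus (0.67 ± 0.16).

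Genes of the stress hormone response were split, 4 higher in hippocampus and 4 in prefrontal cortex of 13 tested. Nr3c2, the mineralocorticoid receptor, which binds corticosterone with high affinity, measured 179.9, 282.5, 283.7 and 267.1 CPM in hippocampus versus 58.3, 64.4, 59.7 and 61.4 CPM in prefrontal cortex (2.06 ± 0.12, adjusted p = 4.1e-18). The prefrontal libraries were nearly level, and the lowest hippocampal one, replicate 1, was far above them. The glucocorticoid receptor gene Nr3c1 measured 110.5 to 125.0 CPM in hippocampus and 131.0 to 158.4 CPM in prefrontal cortex (-0.27 ± 0.09), a small difference that lost its call without hippocampal replicate 1, 2 or 4 or prefrontal replicate 3 or 4 (adjusted p up to 0.151, and 0.221 without prefrontal replicates 2 and 4). Hsd11b1, which regenerates active corticosteroid, was higher in hippocampus at 42.4 to 54.9 CPM against 9.13 to 15.9 CPM (1.80 ± 0.19), as were the receptor co-chaperone Fkbp5 (1.23 ± 0.17) and the CRH-binding protein Crhbp (0.58 ± 0.12). Crh and its receptor Crhr1 were on the prefrontal side.

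Among 20 inhibitory neuron genes, 7 were higher in prefrontal cortex and 3 in hippocampus (median -0.27), against 11.2% and 11.3% of all tested genes. Without prefrontal replicates 2 and 4, 1 was higher in hippocampus. The pan-GABAergic genes Gad1 (-0.15 ± 0.16) and Gad2 (-0.42 ± 0.21), the GABA-synthesising enzymes, and Pvalb, of fast-spiking cells (0.22 ± 0.14), were not called, although Gad2 was in the fit of the 8 libraries alone (adjusted p = 0.0499). Lamp5, of neurogliaform cells and also of upper-layer pyramidal neurons, measured 39.9, 31.8, 32.6 and 34.4 CPM in hippocampus versus 232.8, 103.7, 147.5 and 133.7 CPM in prefrontal cortex (-2.16 ± 0.20, adjusted p = 5.77e-12). Replicate 1 was the highest in both regions, with no overlap. Nos1, neuronal nitric oxide synthase, was higher in hippocampus (0.80 ± 0.17).

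Of 30 voltage-gated potassium and HCN channel genes, 14 were higher in prefrontal cortex and 4 in hippocampus (median -0.34), against 11.2% and 11.3% of all tested genes. The hippocampal number was 2 without hippocampal replicate 3 or prefrontal replicate 3 or 4. Without hippocampal replicates 3 and 4 the numbers were 12 and 1 (median -0.21). Kcnh7, an erg-family subunit, measured 106.6, 111.3, 152.9 and 136.8 CPM in hippocampus versus 394.9, 346.1, 365.1 and 424.9 CPM in prefrontal cortex (-1.59 ± 0.19, adjusted p = 9.43e-09). All prefrontal libraries lay above all hippocampal ones. The silent modifiers Kcnf1 (-1.37 ± 0.15) and Kcnv1 (-1.34 ± 0.16) and the ether-a-go-go subunits Kcnh1 (-1.27 ± 0.11) and Kcnh5 went with it. Kcnd2, of the dendritic A-type current (0.36 ± 0.10), was higher in hippocampus, but not without hippocampal replicates 3 and 4 (adjusted p = 0.242).

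Among 22 semaphorin, plexin and neuropilin genes, 8 were higher in hippocampus and 7 in prefrontal cortex (median -0.01). The ligand Sema3a was a prefrontal gene and its receptor Nrp1 a hippocampal one, at 29.5, 57, 44.4 and 49 CPM in hippocampus versus 11.3, 12.2, 10.1 and 13.7 CPM in prefrontal cortex (1.93 ± 0.17, adjusted p = 4.22e-12). The hippocampal libraries all lay above the prefrontal ones, replicate 1 lowest. For Sema3e and its receptor Plxnd1 it was the reverse, with Sema3e higher in hippocampus (1.54 ± 0.13) and Plxnd1 in prefrontal cortex (-1.67 ± 0.16). Sema5a (1.72 ± 0.14) was higher in hippocampus. Among 18 Eph receptors and ephrins, 8 were higher in hippocampus and 5 in prefrontal cortex (median 0.20), with the receptors Epha6 (1.28 ± 0.17), Epha7 (0.85 ± 0.15) and Epha4 (0.78 ± 0.16) and the ligand Efnb3 (1.15 ± 0.13) on the hippocampal side and the ligand Efna5 (-1.73 ± 0.22) on the prefrontal side. Of 13 matrix and perineuronal net genes, 4 were higher in hippocampus and 2 in prefrontal cortex (median 0.33), but 1 or 2 were higher in hippocampus without hippocampal replicate 1 or 3 or prefrontal replicate 1, 3 or 4. In prefrontal cortex 1 was higher without any 1 of these libraries or hippocampal replicate 4. Without hippocampal replicates 3 and 4 the numbers were 1 and 0. Tnc, the matrix glycoprotein tenascin C, had 0.70 ± 0.21 but was not called without hippocampal replicate 1, prefrontal replicate 3 or 4, or both prefrontal replicates 2 and 4 (adjusted p up to 0.235), and the proteoglycans Acan (0.47 ± 0.22) and Vcan (-0.11 ± 0.13) were not called.

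Myelin genes were higher in hippocampus throughout the list. All 17 tested oligodendrocyte and myelin genes were called in that direction, with log2 fold changes from 0.74 to 1.34 (median 1.10), and 13 of 17 in KO 6M. Mbp, myelin basic protein, measured 1768, 1298, 1467 and 999.3 CPM in hippocampus versus 354.3, 665.7, 601.8 and 654.8 CPM in prefrontal cortex (1.28 ± 0.22, adjusted p = 1.54e-05). Prefrontal replicate 1 was its lowest library and hippocampal replicate 1 the highest. Leaving out replicate 1 of both regions left 12 of 17 called, with a median of 0.84. Of 10 oligodendrocyte precursor genes, 3 were called, all higher in hippocampus, against 22.4% of all tested genes called, and 1 was lower without hippocampal replicate 1 or prefrontal replicate 3. In KO 6M, 0 of them were higher in hippocampus and 2 lower (median 0.06), against 19.7% of all tested genes called. The precursor receptor Pdgfra was not called (0.10 ± 0.09).

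Of 17 astrocyte genes, 6 were higher in hippocampus and none lower (median 0.29), 3 without prefrontal replicates 2 and 4, and 2 without replicate 1 of both regions. KO 6M gave 3 higher and 0 lower (median 0.17). Gfap, the intermediate filament of fibrous and reactive astrocytes, measured 193.4, 140.7, 152.2 and 153.4 CPM in hippocampus versus 28.5, 46.4, 39.5 and 30.5 CPM in prefrontal cortex (2.14 ± 0.25, adjusted p = 4.04e-09). All hippocampal libraries were above all prefrontal ones. Agt, angiotensinogen, measured 19.4 to 26.5 CPM against 2.76 to 4.23 CPM (2.67 ± 0.40). The glutamate transporter Slc1a2 (0.11 ± 0.12) and Aldh1l1 (-0.02 ± 0.15), made by most astrocytes, were not called. None of 13 microglial genes was called by edgeR or DESeq2, and 0 had an unadjusted p under 0.05 by either, with log2 fold changes from -0.11 to 0.24. Their summed level was 653.6 CPM in hippocampal replicate 1 and 455.6 to 475.2 CPM in the other hippocampal libraries. Of 12 vessel genes 1 was called, Flt1 (-0.25 ± 0.09), and it lost the call without any 1 of the libraries except hippocampal replicate 4 (adjusted p up to 0.129).

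Markers of tissue bordering the dissections differed between the regions too. Of 12 choroid plexus genes, 10 were higher in hippocampus (median 3.83), and 4 without hippocampal replicates 3 and 4 (median 2.53). All 8 ependymal genes were higher in hippocampus, and 6 without those replicates: Foxj1, the regulator of motile cilia, measured 1.91, 2.97, 4.13 and 2.76 CPM in hippocampus versus 0.226, 0.83, 0.723 and 0.311 CPM in prefrontal cortex (2.50 ± 0.58), and Tmem212 measured 2.36, 5.99, 6.43 and 3.62 CPM in hippocampus against 1 count in 1 prefrontal library and none in the other 3. Of 13 striatal medium spiny neuron genes, 10 were higher in prefrontal cortex (median -1.93). The number was 3 without prefrontal replicate 2, 6 without prefrontal replicate 4 or hippocampal replicate 4, and 1 without prefrontal replicates 2 and 4 (median -0.63). It was 3 without hippocampal replicates 3 and 4 (median -1.90). In other animals it was 11 in KO 6M (median -2.18) and 11 in WT 6W (median -2.44). Of 9 olfactory bulb genes, 5 were higher in prefrontal cortex, led by Th, tyrosine hydroxylase, at 0.565, 11.5, 6.58 and 1.6 CPM against 0.232 to 0.603 CPM (-3.70 ± 0.77), with replicates 2 and 3 the high ones, and 3 of the 9 were called without prefrontal replicates 2 and 4 or without hippocampal replicates 3 and 4. Of 12 thalamic and habenular genes, 4 were higher in hippocampus, among them Prkcd (1.82 ± 0.26), and Rora was lower (-0.56 ± 0.12), with 2 lower without prefrontal replicate 3. The part of these neighbouring tissues in the other regional differences was not tested.

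Immediate early genes, which neurons switch on after activity, varied widely between libraries within each region. Of 13 tested, 3 were higher in prefrontal cortex (median -0.72), Egr3 (-0.72 ± 0.15), Fosb (-1.22 ± 0.33) and Npas4 (-1.60 ± 0.54). The number was 8 without prefrontal replicate 1, 5 without hippocampal replicate 4 and 1 without prefrontal replicate 4 (median -0.40), and it was 7 without hippocampal replicates 3 and 4 (median -1.12). With the replicate number as a block it was 10 in the fit of all libraries and 9 in that of the 8. Fos itself measured 1.46, 6.22, 14.8 and 15.9 CPM in hippocampus versus 2.45, 16.7, 30.9 and 47.8 CPM in prefrontal cortex and was not called (-1.33 ± 0.60, adjusted p = 0.114), but was without prefrontal replicate 1 (adjusted p = 0.0305) or hippocampal replicates 3 and 4 (adjusted p = 0.0247). In both regions replicate 1 was lowest and replicate 4 highest for Fos. With the replicate number as a block, Fos was called in the fit of all libraries (adjusted p = 0.000906) and in that of the 8 (adjusted p = 0.00018). Fosb was not called without prefrontal replicate 4 (adjusted p = 0.0525), nor Npas4 without hippocampal replicate 1 or 4 or prefrontal replicate 3 or 4 (adjusted p up to 0.109, and 0.278 without prefrontal replicates 2 and 4).

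Mpg, the gene removed in the knockout animals of the series, was present at a like level in both regions, 5.38, 5.25, 6.24 and 5.65 CPM in hippocampus versus 5.08, 4.98, 5.48 and 5.43 CPM in prefrontal cortex (0.11 ± 0.17, adjusted p = 0.722). Of 20 base excision repair genes, 3 were called, against 22.4% of all tested genes. Higher in hippocampus was the DNA break sensor Parp1 at 39.2 to 61.2 CPM against 33.1 to 39.5 CPM, which overlap at the edge (0.58 ± 0.11, adjusted p = 9.75e-05). The uracil glycosylase Ung (-1.08 ± 0.27) and the DNA ligase Lig1 (-0.54 ± 0.17) were higher in prefrontal cortex, Lig1 not without replicate 2 of either region or prefrontal replicates 2 and 4 (adjusted p up to 0.0893). Ung was the 1 gene left on that side without those libraries. The median of the list was 0.06. None of 10 mitochondrially encoded genes was called by edgeR or DESeq2 (1 at an unadjusted p under 0.05 by each), but 1 was higher in hippocampus without hippocampal replicate 2.

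The same regional contrast was read in animals with no library in common. In KO 6M, 3709 genes were called (19.7%), and 2959 genes were called in both genotypes, 70% of the WT calls and 79.8% of the KO calls, all 2959 in the same direction. In WT 6W, 5062 genes were called (26.9%), and 3329 were shared, 78.7% of the adult and 65.8% of the juvenile calls, 3327 of them in the same direction. In WT P5, 4894 genes were called (26%), and 2201 were shared, 52% of the adult and 45% of the P5 calls. Of those 2201, 189 had opposite directions. Across the 18849 genes, which are not independent replicates, the Pearson correlation of the adult WT log2 fold changes was 0.83 with KO 6M, 0.81 with WT 6W and 0.55 with WT P5.

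No gene's regional difference was called as different between WT and KO adults (0 of 18849, with 405 at an unadjusted p under 0.05 by edgeR, and 2 called by DESeq2) or between 6M and 6W (0, with 832 at an unadjusted p under 0.05, and 1 called by DESeq2). Between 6M and P5, 1860 genes were called (9.87%), 858 (4.55%) with a difference more towards hippocampus in the adult and 1002 (5.32%) more towards prefrontal cortex. By the smallest p-values, those more towards hippocampus were led by Gpr161, a ciliary receptor of the hedgehog pathway, Tmem150c, Dbpht2 and Sybu, and those more towards prefrontal cortex by Rasgef1b, Arpp19, Dusp14 and St3gal5. Gpr161 measured 34, 40.5, 38.7 and 40.7 CPM in hippocampus versus 4.4, 5.93, 4.41 and 5.96 CPM in prefrontal cortex in adults, a log2 fold change of 2.90 ± 0.17, while at P5 it was 44.9 ± 2.04 CPM in hippocampus and 40.4 ± 4.61 CPM in prefrontal cortex (SD, n = 4), a log2 fold change of 0.15 (difference of the differences 2.74 ± 0.22, adjusted p = 2.87e-12). Sybu, syntabulin, an adaptor of axonal transport, had a log2 fold change of -1.15 at P5 and 0.05 ± 0.08 in adults (difference 1.20, adjusted p = 6.89e-10). Arpp19, a phosphatase inhibitor, went from -0.22 at P5 to -1.79 (difference -1.57, adjusted p = 2.16e-10).

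Several genes that set the adult regions apart did so little or in the other direction at P5. Cckbr had 8.71 ± 1.3 CPM in hippocampus and 6.72 ± 1.45 CPM in prefrontal cortex (SD, n = 4) at P5, a log2 fold change of 0.37 against -2.82 in adults (difference -3.19 ± 0.28, adjusted p = 3.02e-11). Exph5 was higher in hippocampus at P5, 0.81, and higher in prefrontal cortex in adults, -2.36 (difference -3.17 ± 0.31, adjusted p = 5.59e-10). Rasgef1b (-0.26 at P5), Bmp3 (-0.27), Lamp5 (0.06) and Stard8 (0.11) were further towards prefrontal cortex in adults than at P5, and Dsp (2.06), Tanc1 (0.55) and Gabra5 (0.42) were further towards hippocampus in adults, each with an adjusted p under 0.05 for the difference. Prox1 (3.17 at P5), Cabp7 (3.84), Npy2r (3.19) and Fibcd1 (3.38) were higher in hippocampus at P5 too, and their difference between ages was not called. Mef2c was the reverse case: the regions were further apart at P5, at -3.27, than in adults, at -2.30 (difference 0.97 ± 0.27, adjusted p = 0.0134). Among the lists, 2 of 17 myelin genes were called at P5 against 17 in adults, and 10 of 13 microglial genes were higher in hippocampus at P5 against none in adults, where 26% and 22.4% of all genes were called. Choroid plexus and ependymal genes were higher in hippocampus at P5 as well, in 11 of 12 and 8 of 8, while striatal genes higher in prefrontal cortex numbered 3 of 13 at P5 and 10 in adults. Whether these list counts differ between ages was not tested as lists.

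**Figure D5:**
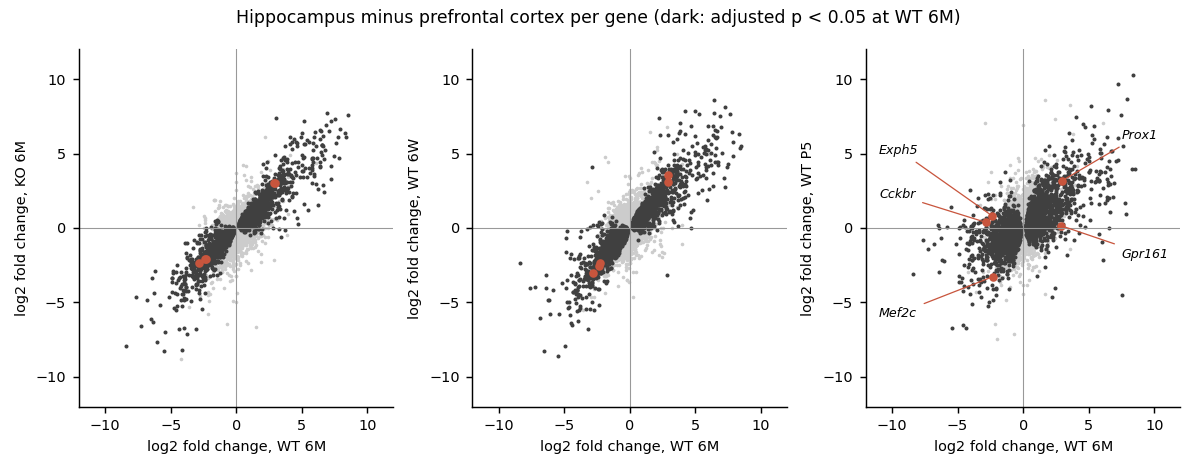
Each point is 1 of 18849 genes, with the regional log2 fold change (hippocampus minus prefrontal cortex) at WT 6M on the horizontal axis and in KO 6M, WT 6W or WT P5 on the vertical axis; dark points were called at WT 6M and 5 genes are in red, named in the last panel. Points lie closer to the diagonal for KO 6M and WT 6W (Pearson 0.83 and 0.81) than for WT P5 (0.55), where Cckbr and Exph5 lie on the other side of 0.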

How the data were processed

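Poly(A) RNA libraries (SENSE mRNA kit, 75-base single-end reads) of dissected hippocampus and prefrontal cortex were read as raw counts per gene, which the authors deposited in a table of 54838 genes and 48 libraries. The submitters' processing notes name bcl2fastq 2.20.0.422, STAR 2.4.0, HTSeq and GRCm38, without role or order. The annotation release, the strand setting and the treatment of reads with several matches are not given in the sources used here. Identifiers without a symbol in GENCODE M21 held 0.0324% of the counts.

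Groups came from the labels. All 48 libraries entered a single edgeR 4.0.16 quasi-likelihood fit (R 4.3.3, limma 3.58.1) with TMM scaling, the default filter on low counts and 12 region, genotype and age groups, leaving 36 residual degrees of freedom. P-values were adjusted by Benjamini-Hochberg over the 18849 tested genes, with a threshold of 0.05. CPM values are TMM-scaled. Total counts of the 8 libraries were 22347188 to 37979957, so 3 counts equal 0.0811 to 0.151 CPM. On simulated counts with 200 changed genes among 18627, the same test for hippocampus against prefrontal cortex recovered 89% at a change of 1 log2 unit and 99% at 2, with 3.59% false calls. No pair of replicates matched within sampling noise (chi-square per degree of freedom 8.94 to 129.0 in 12 pairs).

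Named genes were the 12 with the largest log2 fold change in each direction among called genes with no overlap of CPM values and a mean log2 CPM of at least 4, members of 36 gene lists, Mpg, and the 4 genes with the smallest p in each direction of each interaction. Members and lists were chosen with earlier results of these data known. Alternatives were median-of-ratios scaling, other filters, DESeq2 1.42.0, fits of fewer samples, a replicate block and leaving out libraries. Results for some genes are not reported here.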

Additional observations from a re-analysis of the deposited data

Results flagged for a closer look

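In 41 of 470 sets of 4 libraries (each named gene and each summed list in each region), the highest or lowest library was set apart from the others by more than Dixon's 95% limit for 4 samples, where chance gives about 1 in 20, or 23.5 sets. Hippocampal replicate 1 was that library in 21 sets and prefrontal replicate 1 in 12, the other libraries in 0 to 3 each. Hippocampal replicate 1 lay above the other 3 libraries of its region for Cux2 at 34.4 CPM (others 17.3 to 19.1), Fhod3 at 14.1 CPM (others 6.86 to 7.85), Gabra3 at 154.5 CPM (others 108.7 to 111.2), Grm3 at 102.6 CPM (others 72.6 to 77.1), Grm8 at 8.49 CPM (others 5.05 to 5.34), Hsd11b1 at 54.9 CPM (others 42.4 to 44.2), Meis2 at 74 CPM (others 41.5 to 45), Pvalb at 32.8 CPM (others 23.1 to 24.4), Rasgef1b at 22 CPM (others 12.1 to 13.2), Rorb at 53 CPM (others 31.3 to 33.9) and Rprm at 14.4 CPM (others 9.09 to 9.3). Hippocampal replicate 1 lay under the other 3 libraries of its region for Egr3 at 105.4 CPM (others 141.9 to 146.1), Gabra5 at 413.5 CPM (others 481.1 to 491.7), Nfib at 221.9 CPM (others 292.8 to 293.9), Nr3c2 at 179.9 CPM (others 267.1 to 283.7), St18 at 32.6 CPM (others 47.8 to 50.2) and Trp73 at 1.96 CPM (others 3.39 to 3.65). Prefrontal replicate 1 lay above the other 3 libraries of its region for Cpne5 at 203.3 CPM (others 136.4 to 147.5), Epha4 at 339.3 CPM (others 180.5 to 203.8), Grin1 at 299.6 CPM (others 218.0 to 224.5), Lct at 5.8 CPM (others 1.74 to 1.91), Otof at 17.7 CPM (others 10.5 to 11.1), Plxnd1 at 85.7 CPM (others 63.1 to 66.1) and Wfs1 at 146.3 CPM (others 61.8 to 72.5). Prefrontal replicate 1 lay under the other 3 libraries of its region for Acan at 1.28 CPM (others 1.65 to 1.71), Fkbp5 at 9.49 CPM (others 11.6 to 12.1), Gabra5 at 130.2 CPM (others 142.1 to 144.0), Nfia at 87.4 CPM (others 114.0 to 115.5) and Rprm at 13.3 CPM (others 20.5 to 21.9). The remaining single genes were Acan in hippocampal replicate 3 at 2.73 CPM (others 1.9 to 2.04), Drd3 in hippocampal replicate 3 at 0.054 CPM (others at 0), Gabrg3 in prefrontal replicate 3 at 67.1 CPM (others 79 to 81.1), Lhx1 in prefrontal replicate 3 at 0.0381 CPM (others at 0), Meis2 in prefrontal replicate 2 at 276.7 CPM (others 196.0 to 206.0), Nr2f2 in hippocampal replicate 3 at 49.1 CPM (others 60 to 62.1), Pvalb in prefrontal replicate 2 at 17.5 CPM (others 23.6 to 24.9) and Tmem212 in prefrontal replicate 4 at 0.0445 CPM (others at 0). In 3 of these sets, Drd3, Lhx1 and Tmem212, the library set apart had under 3 counts and the others none, so the gap is that of 1 or 2 counts. Of the summed lists, hippocampal replicate 1 was apart for microglia genes at 653.6 CPM (others 455.6 to 475.2), stress and steroid hormone response genes at 602.1 CPM (others 717.3 to 736.9), extracellular matrix and perineuronal nets genes at 1443 CPM (others 1570 to 1592) and mitochondrially encoded genes at 233019 CPM (others 113083 to 124889).

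For 86 named genes the regional log2 fold change differed between WT 6M and WT P5 by the test of that difference (edgeR's quasi-likelihood test, adjusted p under 0.05). The value is the 6M minus the P5 log2 fold change. Towards hippocampus in the adult were Dsp (4.81), Tdo2 (3.79), Gpr161 (2.74), Grp (2.41), Lhx9 (2.13), Tanc1 (2.02), Lct (1.95), Lratd2 (1.83), Pou3f1 (1.83), Neurod6 (1.77), Tmem150c (1.71), Prkcd (1.63), Dbpht2 (1.63), Amigo2 (1.60) and Fkbp5 (1.46). With smaller values came Gabra5 (1.32), Shisa6 (1.27), Rprm (1.26), Pou3f2 (1.22), Sybu (1.20), Mbp (1.17), Rorb (1.16), Epha7 (1.04), Nos1 (1.0), Chrm2 (0.99), Mef2c (0.97), Man1a (0.97), Efnb3 (0.93), Hs3st4 (0.92) and Glis3 (0.91). With smaller values came Gm2115 (0.87), Pcdh20 (0.86), Bcl11b (0.77), Kcnv1 (0.73), Etv1 (0.73), Vcan (0.72), Neurod2 (0.70), Sema5a (0.67) and Parp1 (0.50). Towards prefrontal cortex in the adult were Cckbr (-3.19), Exph5 (-3.17), Rspo1 (-2.96), Otof (-2.59), Dusp14 (-2.53), Rasgef1b (-2.48), Bmp3 (-2.42), Lamp5 (-2.21), Stard8 (-2.12), Crym (-1.91), Chrdl1 (-1.86), Sstr2 (-1.85), Coch (-1.85), Hopx (-1.70) and Pdyn (-1.69). With smaller values came Arpp19 (-1.57), Adra1b (-1.41), Cck (-1.38), Efna5 (-1.34), Ccdc3 (-1.31), Cpne5 (-1.24), St3gal5 (-1.23), Emx2 (-1.16), Ung (-1.08), Nrp1 (-0.97), Calb1 (-0.95), Cbln2 (-0.94), Adra1a (-0.93), Neurod1 (-0.92) and Deptor (-0.92). With smaller values came Slc1a2 (-0.83), Fhod3 (-0.80), Gabra3 (-0.77), Chrna4 (-0.76), Epha6 (-0.76), Reln (-0.75), Htr2a (-0.73), Plxnd1 (-0.67), Nr3c2 (-0.63), Sema3e (-0.63), Htr1a (-0.61), Nr3c1 (-0.59), Gria4 (-0.57) and Gabrg3 (-0.50). For Igfn1 the fitted value was -6.61, but at P5 it was at 0 to 0.173 CPM in hippocampus and 0 to 0.037 CPM in prefrontal cortex, with most of these libraries under the 3-count floor, so that value depends on the prior count and is no measured fold. The same holds in part for Iyd, with a fitted value of 4.58, whose adult prefrontal libraries were at 0.0445 to 0.188 CPM, and for C1ql2, with 4.28, whose P5 prefrontal libraries were at 0.0576 to 0.446 CPM.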

How the results depend on the processing

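The number of genes called between the regions at WT 6M was 4230 and ranged from 2864 to 4397 over all alternatives, and from 3603 to 3858 with 1 library left out. For KO 6M it was 3709, and 3066 to 3559 with 1 library left out. For the change of the regional difference from P5 to 6M it was 1860, and 1506 to 1999. For region by genotype it was 0, and 0 to 0 with 1 library left out, but 2 by DESeq2. For 6M against 6W it was 0, and 0 to 1 with 1 library left out (1 without prefrontal WT 6W replicate 1), and 1 by DESeq2. Scaling by median-of-ratios factors moved the median of all genes by no more than 0.02.

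Whether replicate numbers pair the regions stayed open. At WT 6M, deviations of same-numbered libraries from their group means correlated at -0.17 to 0.06, and those of other numbers at -0.34 to 0.39. There, 1 of 4 hippocampal libraries correlated best with its own number. Same-numbered libraries gave -0.03 to 0.41 at WT P5, 0.04 to 0.19 in KO 6M and -0.16 to 0.17 in WT 6W. With 4 libraries a region, several of them set apart in their makeup, such correlations cannot decide the question. With the number as a replicate block, 4022 genes were called at WT 6M in the fit of all libraries and 3193 in the fit of the 8. Under the block the immediate early genes higher in prefrontal cortex numbered 10 and 9 of 13, against 3. The blocked fit of the 8 did not call 7 named genes called as reported, which were Dcx, Flt1, Lig1, Nr3c1, Ntsr1, Reln and Ung (adjusted p = 0.051 to 0.0814), and that of all libraries did not call Drd3 and Flt1. Fos was called in both and Sst in that of the 8.

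Alternatives chosen after seeing the data gave 3213 calls without prefrontal replicates 2 and 4, 2864 without hippocampal replicates 3 and 4, and 3448 without replicate 1 of both regions, and kept 70.2%, 64.8% and 73.5% of the 4230 calls. Among the named genes, 10 of those not called had a fitted value on either side of 0 under some alternative. Of those called, the 1 that changed sign was Drd3 without prefrontal replicates 2 and 4, where the fitted value was 2.38 (adjusted p = 0.691). Its remaining libraries are at or under the floor, so that value depends on the prior count and is no fold. Without the block, the fit of the 8 did not call Gabra2, Ntsr1 and Tnc and called Fezf2, Gad2 and Sst. The fit of the 24 WT libraries did not call Ntsr1. With no filter on low counts Flt1 and Nr3c1 were not called and Drd2, Fezf2, Fos and Sst were, and DESeq2 called Emx1. Depth limits genes near 3 counts, and 4 animals a group limit small differences.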
